A study of Arabidopsis thaliana with 16 samples.

Results

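The state of *A. thaliana* control plants in a volatile-exposure setup was compared with that of plants that had not been placed in the setup. The plants compared were chosen by their labels: 3 arrays of control plants that had shared the air of healthy Lima bean plants for 48 h (48 h controls) and 3 arrays of healthy plants, 6 of the 16 arrays of the series. The series asks how *A. thaliana* receivers respond to volatiles from leafminer-damaged Lima bean plants, and how this compares with direct feeding by leafminer larvae. The 48 h controls belong to the volatile experiment and the healthy plants to the feeding experiment, and the 2 groups are not set against each other in the design of either.

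All plants were wild-type Col-0 and described as 4 weeks old, with tissue of at least 8 plants pooled in each sample. For the feeding experiment this was the age when leafminers were released. Leaves were taken after the larvae had grown, and the healthy plants were of the same age as the fed ones. Age at harvest may thus differ between the groups. The tissue label is leaves for every sample, but the titles speak of seedlings, and the study's methods name leaves for the feeding experiment alone, saying for the volatile experiment no more than that receiver plants were frozen. Both groups were grown at 22 °C with 16 h of light and 8 h of darkness. The 48 h controls stood on a steel shelf above undamaged Lima bean plants in a glass jar fed with filtered, moistened air, whereas the healthy plants were left untreated and were the controls of the leafminer-fed plants. The 24 h controls (2 arrays) had been in the same setup for 24 h, and the leafminer-fed plants (3 arrays) carried feeding larvae; both are given for comparison. The setup, the Lima bean air, the experiment, the tissue sampled, the age at harvest, the time of harvest and the array batch all differ, or may differ, between the 48 h controls and the healthy plants. They cannot be told apart in any value below. No source used here gives a scan date or an hour of harvest. The volatile samples are described as repeats and the feeding samples as separate samples, and separate growth is not described, so p-values capture no more than the variation among such pools, which may be technical.

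Leaf transcripts follow the light regime, the temperature and the water and sugar status of a plant, and many of them also cycle over the day under the circadian clock. Defence genes are controlled by several hormones. Jasmonate and ethylene together induce defensins such as PDF1.2, jasmonate without ethylene induces storage proteins such as VSP1, and salicylate induces PR-1. Sealing, moving or touching a plant, darkness and sugar shortage each induce gene groups of their own.

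Transcript abundance was the signal of a probe set on the ATH1 array, scaled to equal distributions over the 16 arrays and given as log2, and a log2 difference is that of the 48 h controls minus healthy plants. Of 22746 probe sets, 1999 (8.79%) were up-regulated and 1880 (8.27%) down-regulated in the 48 h controls, where up- and down-regulated mean an adjusted p of at most 0.05 (limma) and a change of at least 2-fold. These shares are the background of each count of list members below. All 48 h control arrays were above all healthy arrays for 18.5% of probe sets and below them for 20.0%, so that 38.5% did not overlap. For the 24 h controls, which are compared with the same 3 healthy arrays, 1939 (8.52%) were higher and 1934 (8.50%) lower. In the 48 h controls against the 24 h controls, 2 probe sets were higher and 2 lower (0.00879% each, together 0.0176%), and 1665 had an unadjusted p under 0.05. Leafminer-fed plants had 2229 higher (9.80%) and 2383 lower probe sets (10.5%) than healthy plants, together 20.3%. Across probe sets, arrays of 48 h controls correlated with each other at 0.951 to 0.966, with the 24 h controls at 0.956 to 0.966 and with healthy arrays at 0.893 to 0.923, and healthy arrays with each other at 0.957 to 0.965. No array of the 48 h controls lay nearer to a healthy array than to any other array of the volatile experiment.

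Some array measures moved with the groups. The ratio of actin signal at the 3′ end to that at the 5′ end was 26.4, 17.3 and 12.6 in the 48 h controls, against 8.62, 7.40 and 8.50 in healthy plants. For GAPDH it was 1.47, 1.25 and 1.67 in the 48 h controls, against 1.13, 1.04 and 0.948 in healthy plants. For ubiquitin it was 2.15, 1.73 and 2.29 in the 48 h controls, against 2.38, 2.29 and 2.39 in healthy plants. Thus 2 of the 3 transcripts had a higher ratio in every 48 h control, and ubiquitin did not. The part of these ratios in the gene results was not tested. Nuclear photosynthesis genes, which mark green tissue of any kind, had high signals in both groups. LHCB4.1, an antenna protein of photosystem II, had signals of 11.66 to 11.75 in the 48 h controls and 11.35 to 11.38 in healthy plants, and RCA, Rubisco activase, had 11.41 to 11.72 in the 48 h controls and 11.92 in each healthy array.

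**Figure D1:**
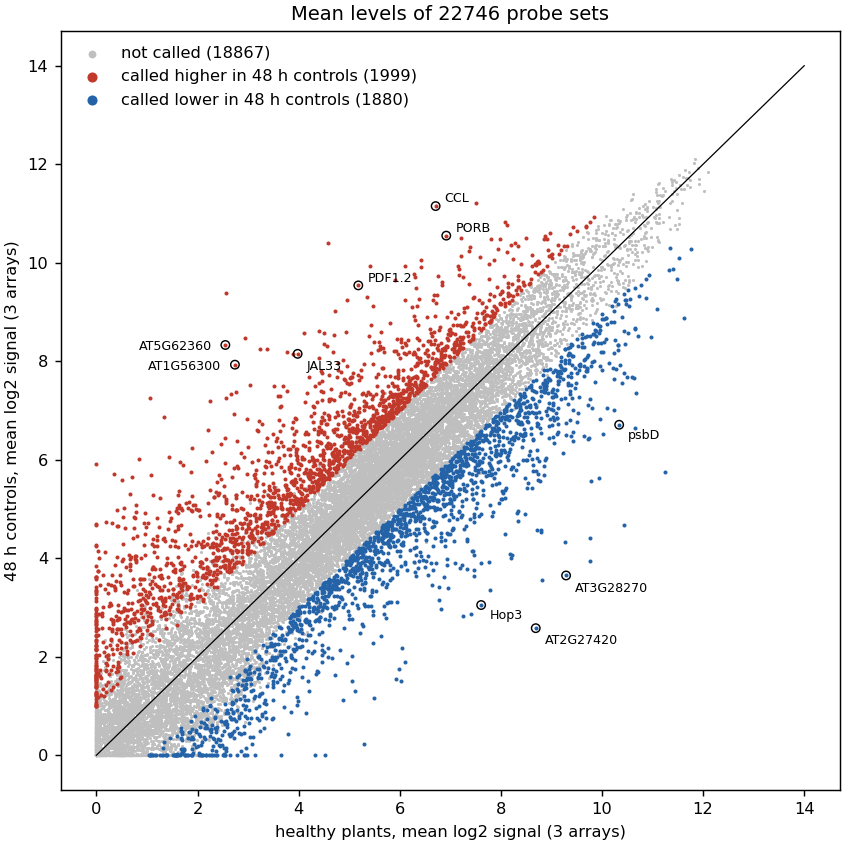
Mean log2 signal of each of 22746 probe sets in 48 h controls (vertical axis) against healthy plants (horizontal axis), 3 arrays each, with 1999 probe sets called higher in red, 1880 called lower in blue, and ringed points for the genes labelled. The line marks equal means, and called probe sets lie on both sides of it.

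The 10 rises of greatest size, ranked over called probe sets without overlap of the groups that match 1 gene in the platform annotation, came from genes of different families and ranged between 4.58 and 5.78. Probe sets without such a match were not ranked. One of them, which the study's primer list names as a relative of a latex allergen of Hevea brasiliensis, averaged 8.47 ± 0.46 in the 48 h controls and 2.94 ± 0.47 in healthy plants (SD, n = 3 each; log2 difference 5.53 ± 0.32, adjusted p = 5.5e-07), above all ranked rises but that of AT5G62360. AT5G62360, a member of the pectin methylesterase inhibitor family, had signals of 9.61, 7.95 and 7.44 in the 48 h controls, against 3.05, 3.16 and 1.42 in healthy plants (log2 difference 5.78 ± 0.51 SE, adjusted p = 7e-06). AT1G56300, a protein with a DnaJ chaperone domain, had 8.43, 7.58 and 7.77 in the 48 h controls, against 2.86, 3.00 and 2.36 in healthy plants (5.18 ± 0.24, adjusted p = 2.1e-07). The lowest 48 h control stood more than 4 log2 units above the highest healthy array for both genes. AT4G39670, of the glycolipid transfer protein family, had 6.34, 6.29 and 5.42 in the 48 h controls, against 1.36, 1.16 and the floor of 0 in healthy plants. AT4G30650, of the low-temperature and salt responsive family of small membrane proteins, had 7.94, 7.19 and 6.64 in the 48 h controls, against 3.06, 1.05 and 3.57 in healthy plants. AT4G33980, also known as COR28, a cold-regulated repressor of clock genes, had 5.02, 4.59 and 4.49 in the 48 h controls, whereas all 3 healthy arrays were at the floor, so that its difference of 4.70 is measured from the floor. Also among the 10 rises of greatest size were AT4G29030 (4.95), GAT1_2.1, a glutamine amidotransferase (4.67, with all healthy arrays at the floor), scpl31, a serine carboxypeptidase-like protein (4.64), AT4G16000 (4.62) and AT5G33370, a GDSL lipase (4.58). In the 24 h controls these 10 genes averaged 5.18 to 9.88.

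The falls of greatest size were led by AT2G27420, a cysteine proteinase. Its signals were 3.47, 1.61 and 2.65 in the 48 h controls, against 8.30, 8.62 and 9.14 in healthy plants, a 69.1-fold lower level (log2 difference -6.11 ± 0.55, adjusted p = 7.8e-06). AT3G28270, of the At14a-like family, had 3.90, 3.65 and 3.41 in the 48 h controls, against 8.92, 9.43 and 9.53 in healthy plants (-5.64 ± 0.49, adjusted p = 6e-06). TBL26, of the family that acetylates wall polysaccharides, had 4.56, 3.45 and 2.63 in the 48 h controls, against 8.64, 8.51 and 9.27 in healthy plants. The fed plants differed between these genes: AT2G27420 averaged 3.39 in them, close to the 48 h controls, whereas AT3G28270 averaged 9.15 and TBL26 8.57, close to healthy plants. The other falls among the 10 of greatest size were AT5G66740 (-5.06), the co-chaperone Hop3 (-4.56), AT3G15310 (-4.43), AT4G26790, a GDSL lipase (-4.39), AT5G48570, the heat-induced peptidyl-prolyl isomerase ROF2 (-4.22), AT5G12110, a subunit of translation elongation factor EF1B (-4.22) and AT2G15020 (-4.16).

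Genes tied to the clock and to light moved in both directions. Of 8 measured clock-related genes, 2 were up-regulated and 1 down-regulated (8.79% and 8.27% over all probe sets). Their median log2 difference was -0.40, against -0.01 over all probe sets. Without the first 48 h control the median was -0.20 and 1 gene was up-regulated; 1 was also up-regulated without the first healthy array, and none was down-regulated by limma without the second. COR27, which with COR28 represses clock genes and itself cycles over the day, had signals of 5.56, 4.46 and 5.07 in the 48 h controls, against 0.93, 0 and 0.71 in healthy plants (4.48 ± 0.34, adjusted p = 2.6e-06). All 10 arrays of the volatile experiment were above all 6 of the feeding experiment for COR27. GI, a clock protein of the evening that promotes flowering, had 7.36, 6.11 and 6.60 in the 48 h controls, against 5.55, 5.62 and 5.80 in healthy plants (1.03 ± 0.24, adjusted p = 0.0054). The groups did not overlap for GI, but its change fell under 2-fold without the first 48 h control (0.70, adjusted p = 0.0065) or the first healthy array (0.98, adjusted p = 0.021). AT5G52660, the MYB factor RVE6, had 4.63, 4.94 and 4.98 in the 48 h controls, against 5.76, 6.01 and 5.88 in healthy plants (-1.03 ± 0.14, adjusted p = 0.00018), and it fell under 2-fold without the first 48 h control (-0.92) or the second healthy array (-0.97). CCL, a transcript of the clock-controlled decay pathway that was named after its values were seen, had 10.88, 11.25 and 11.31 in the 48 h controls, against 6.82, 7.31 and 6.01 in healthy plants (4.43 ± 0.29, adjusted p = 1.1e-06). CCA1, LHY, TOC1 and PRR5 had no named probe set.

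Of 4 measured light-signalling genes, 1 was up-regulated and 1 down-regulated (8.79% and 8.27% over all probe sets). Their median was 0.80, with 3 above 0. AFR and COL2, described below, are not among the 4. HYH, a bZIP factor that acts with HY5 to promote light responses, had 3.97, 4.70 and 4.43 in the 48 h controls, against 6.21, 6.69 and 6.09 in healthy plants (-1.96 ± 0.22, adjusted p = 3.9e-05). AFR, an F-box protein of phytochrome A signalling that was named after its values were seen, had 4.47, 5.36 and 4.94 in the 48 h controls, against 7.68, 7.79 and 8.07 in healthy plants (-2.92 ± 0.25, adjusted p = 5.4e-06). Both lay below every healthy array in each of the 10 arrays of the volatile experiment. The gene called higher was SHB1, a regulator of blue-light responses, at 3.22, 2.38 and 3.15 in the 48 h controls, against 2.42, 0 and 0 in healthy plants (2.11 ± 0.59, adjusted p = 0.016). Its groups overlapped, and its call was lost without the second (1.71, adjusted p = 0.060) or the third healthy array (1.71, adjusted p = 0.069). COL2, a CONSTANS-like factor named by the study's primer list, had 6.20, 8.11 and 7.39 in the 48 h controls, against 9.28, 9.15 and 9.11 in healthy plants (-1.95 ± 0.38, adjusted p = 0.0020).

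Of 24 measured nuclear genes of photosynthesis, 1 was up-regulated, 3 were down-regulated and 20 were not called. Over all probe sets, 17.1% were called in either direction. The median difference of the list was 0.12, and it was below 0 with median scaling (-0.15) and with no scaling (-0.21). Thus the list as a whole has no direction that holds under each scaling. LHCB4.3, an antenna protein of photosystem II, had 6.54, 5.92 and 5.02 in the 48 h controls, against 8.08, 7.91 and 8.65 in healthy plants (-2.39 ± 0.35, adjusted p = 0.00028). The calcium-sensing thylakoid protein CaS differed by -1.20 ± 0.19 (adjusted p = 0.00048) and NdhN, a subunit of the chloroplast NADH dehydrogenase-like complex, by -1.38 ± 0.29 (adjusted p = 0.0034). The gene called higher was PIFI, an NDH-linked protein, at 9.49 to 9.77 in the 48 h controls and 8.31 to 8.55 in healthy plants (1.18 ± 0.11, adjusted p = 8.9e-06). Among 14 genes of chlorophyll and carotenoid synthesis, 1 was up-regulated, 1 was down-regulated and 10 had a difference above 0. These shares were 8.79%, 8.27% and 47.5% over all probe sets. PORB, the protochlorophyllide reductase that makes chlorophyllide in light, had 10.78, 10.62 and 10.26 in the 48 h controls, against 6.81, 7.69 and 6.26 in healthy plants, a 12.4-fold higher level (3.63 ± 0.28, adjusted p = 3.3e-06). LYC, lycopene cyclase, had 7.42, 7.51 and 7.58 in the 48 h controls, against 8.78, 8.67 and 9.25 in healthy plants (-1.40 ± 0.14, adjusted p = 2.4e-05). Without the third 48 h control, 5 genes of this list were called higher in place of 1, and 2 were without the second or the third healthy array.

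Of 17 measured genes of cold, water deficit and abscisic acid, 6 were up-regulated in the 48 h controls and none was down-regulated by limma (8.79% and 8.27% over all probe sets). Their median was 0.52, against -0.01 over all probe sets, but it rested on the third array of each group: it was 0 without the third 48 h control, with 8 genes above 0 and 8 below, and 0.33 without the third healthy array. On log2 of the value plus 16, which narrows differences between low signals, it was 0.12. Leaving out an array left 5 or 6 genes up-regulated. DI21, a drought-induced protein, had 6.22, 6.43 and 6.52 in the 48 h controls, against 2.46, 3.45 and 2.41 in healthy plants (3.61 ± 0.29, adjusted p = 4e-06). LTI30, a dehydrin, had 4.84, 4.26 and 3.91 in the 48 h controls, against 2.59, 1.88 and 0.21 in healthy plants (2.77 ± 0.47, adjusted p = 0.00076). The chloroplast cold protein COR15B (1.69 ± 0.36, adjusted p = 0.0034) and the dehydrin COR47 (1.32 ± 0.24, adjusted p = 0.0011) were also higher. Its close relative COR15A had 5.58, 6.34 and 4.24 in the 48 h controls, against 6.04, 7.01 and 5.13 in healthy plants, and did not pass the test (-0.68, 95% interval -1.80 to 0.45). The fed plants were higher than the 48 h controls for COR15B (mean 8.63), COR47 (11.27) and LTI30 (7.51), but not for DI21 (4.19) or COR27 (2.18). HIS1-3, a linker histone induced by drought, had 4.20 in the first 48 h control and 7.47 and 7.88 in the others, against 3.52 to 4.66 in healthy plants. Its call (2.33 ± 0.82, adjusted p = 0.045) was lost when any array of these groups but the first 48 h control was left out, with adjusted p between 0.059 and 0.17.

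Of 11 measured genes of early stress and touch, 4 were up-regulated and none was down-regulated, with a median of 0.62 (0.38 without the third 48 h control). Over all probe sets, 8.79% were up-regulated and 8.27% down-regulated. CML37, a calmodulin-like protein induced by wounding and touch, had 4.06, 4.54 and 3.79 in the 48 h controls, against 0, 0.52 and 0 in healthy plants (3.96 ± 0.34, adjusted p = 5.7e-06). CML38, its closest relative, had 4.07, 4.52 and 4.79 in the 48 h controls, against 2.35, 1.23 and 0 in healthy plants (3.27 ± 0.51, adjusted p = 0.00043). STZ, a zinc-finger repressor induced by several stresses, had 6.84, 6.96 and 7.89 in the 48 h controls, against 4.79, 4.82 and 4.20 in healthy plants (2.63 ± 0.28, adjusted p = 3.2e-05). CML42, which acts in leaf hairs and defence, differed by 1.31 ± 0.20 (adjusted p = 0.00041). The groups of these 4 genes did not overlap, which held for 38.5% of all probe sets. Fed plants had higher means than the 48 h controls for CML37 (5.25), CML38 (8.34) and STZ (9.29).

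Among heat-shock genes, falls outnumbered rises. Of 16 probe sets for 15 genes, 7 were down-regulated and 2 up-regulated in the 48 h controls (8.27% and 8.79% over all probe sets). The median of the list was -0.78. Hop3, which links Hsp70 to Hsp90, had signals of 2.94, 2.68 and 3.53 in the 48 h controls, against 7.27, 7.81 and 7.75 in healthy plants, a 23.5-fold lower level (-4.56 ± 0.29, adjusted p = 1e-06). AT5G48570 had 4.57, 4.20 and 4.97 in the 48 h controls, against 8.60, 8.79 and 9.02 in healthy plants (-4.22 ± 0.31, adjusted p = 2.1e-06). Fed plants lay between these groups, at means of 4.79 for Hop3 and 5.78 for AT5G48570. The chaperone Hsp70-2 (-1.95 ± 0.23, adjusted p = 6.8e-05), the small heat-shock protein AT1G53540 (-1.68 ± 0.42, adjusted p = 0.0085) and the nucleotide exchange factor Fes1A (-1.61 ± 0.21, adjusted p = 0.00011) were lower as well. The remaining falls were in the small chaperone BOB1 (-1.14) and in Hop2 (-1.07). BOB1 went under 2-fold without the second healthy array (-0.97), and Hop2 without the second 48 h control (-0.92). The 2 genes that rose were Fes1B and Fes1C, paralogues of Fes1A. Fes1B ranged between 6.54 and 7.21 in the 48 h controls and between 1.04 and 3.78 in healthy plants (4.19 ± 0.52, adjusted p = 9.3e-05). Fes1C had 6.05, 6.82 and 7.31 in the 48 h controls, against 4.71, 4.46 and 4.54 in healthy plants (2.15 ± 0.24, adjusted p = 3.8e-05). The 3 Fes1 genes thus differed from healthy plants in different directions.

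Genes known to rise in darkness and sugar shortage were more often higher. Of 10 measured genes, 5 were up-regulated and 1 was down-regulated in the 48 h controls (8.79% and 8.27% over all probe sets). The median of the list was 1.00. With only the arrays of both groups in the fit, 3 were up-regulated. MCCA, a subunit of the carboxylase that degrades leucine, had 6.62, 7.75 and 8.92 in the 48 h controls, against 4.88, 5.08 and 5.27 in healthy plants (2.68 ± 0.42, adjusted p = 0.00047). MCCB, the other subunit, differed by 1.25 ± 0.20 (adjusted p = 0.00058) and IVD, which acts one step earlier in the same pathway, by 1.56 ± 0.41 (adjusted p = 0.011). AKINBETA1, a subunit of the energy-sensing kinase SnRK1, had 7.42, 8.62 and 9.29 in the 48 h controls, against 6.16, 6.36 and 5.96 in healthy plants (2.28 ± 0.36, adjusted p = 0.00045). For MCCA, IVD and AKINBETA1 the first 48 h control was the lowest of its group and still above every healthy array. The gene called lower was PPDK, pyruvate orthophosphate dikinase, at 6.92, 7.89 and 8.93 in the 48 h controls and 9.57, 9.11 and 10.23 in healthy plants (-1.73 ± 0.45, adjusted p = 0.011), and its call was lost without the third healthy array (-1.43, adjusted p = 0.051). ASN1 and SEN1, common markers of dark-treated leaves, had no named probe set.

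All 10 measured genes of autophagy, the process that recycles cell contents, had a difference above 0 with a median of 0.91, and 5 of them were up-regulated, all members of the ATG8 family. ATG8E had 7.04, 7.99 and 8.19 in the 48 h controls, against 6.20, 5.44 and 5.04 in healthy plants (2.18 ± 0.37, adjusted p = 0.00084). Differences were 1.28 ± 0.28 for ATG8H (adjusted p = 0.0043) and 1.17 ± 0.22 for ATG8F (adjusted p = 0.0017). The count was 1 with only the arrays of both groups in the fit, 2 on log2 of the value plus 16, 3 with no scaling, 2 without the third 48 h control, where the difference of ATG8F was 0.97, and 3 without the third healthy array. Over all probe sets, 47.5% had a difference above 0 and 8.79% were up-regulated. In fed plants the median difference of these 10 genes from healthy plants was 0.31.

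Genes of carbon storage and transport were mixed. APL3, a subunit of the starch-making ADP-glucose pyrophosphorylase that is induced by sugar, had 4.52, 4.36 and 3.83 in the 48 h controls, against 6.95, 5.72 and 8.01 in healthy plants (-2.65 ± 0.42, adjusted p = 0.00049). DPE1, a starch-degrading enzyme of the chloroplast, had 7.25, 6.58 and 6.42 in the 48 h controls, against 4.33, 4.50 and 4.50 in healthy plants, a 4.93-fold higher level (adjusted p = 5e-06, limma). ATSPS4F, a sucrose phosphate synthase named after its values were seen, had 7.11, 6.81 and 5.55 in the 48 h controls, against 9.79, 8.99 and 10.17 in healthy plants (-3.16 ± 0.39, adjusted p = 8.6e-05). Of 19 sugar transporters, 1 was up-regulated and 3 were down-regulated (8.79% and 8.27% over all probe sets), with a median of -0.70. The 3 that fell were SWEET2 (-2.25 ± 0.33, adjusted p = 0.00027), SWEET13 (-2.17 ± 0.39, adjusted p = 0.0012) and the vacuolar transporter TMT2 (-1.09 ± 0.16, adjusted p = 0.00028), and the vacuolar SWEET16 rose by 1.11 ± 0.15 (adjusted p = 0.00017). Without the second 48 h control, 6 of these transporters were lower; TMT2 went just under 2-fold without the third 48 h control, and to -0.95 without the third healthy array.

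**Figure D2:**
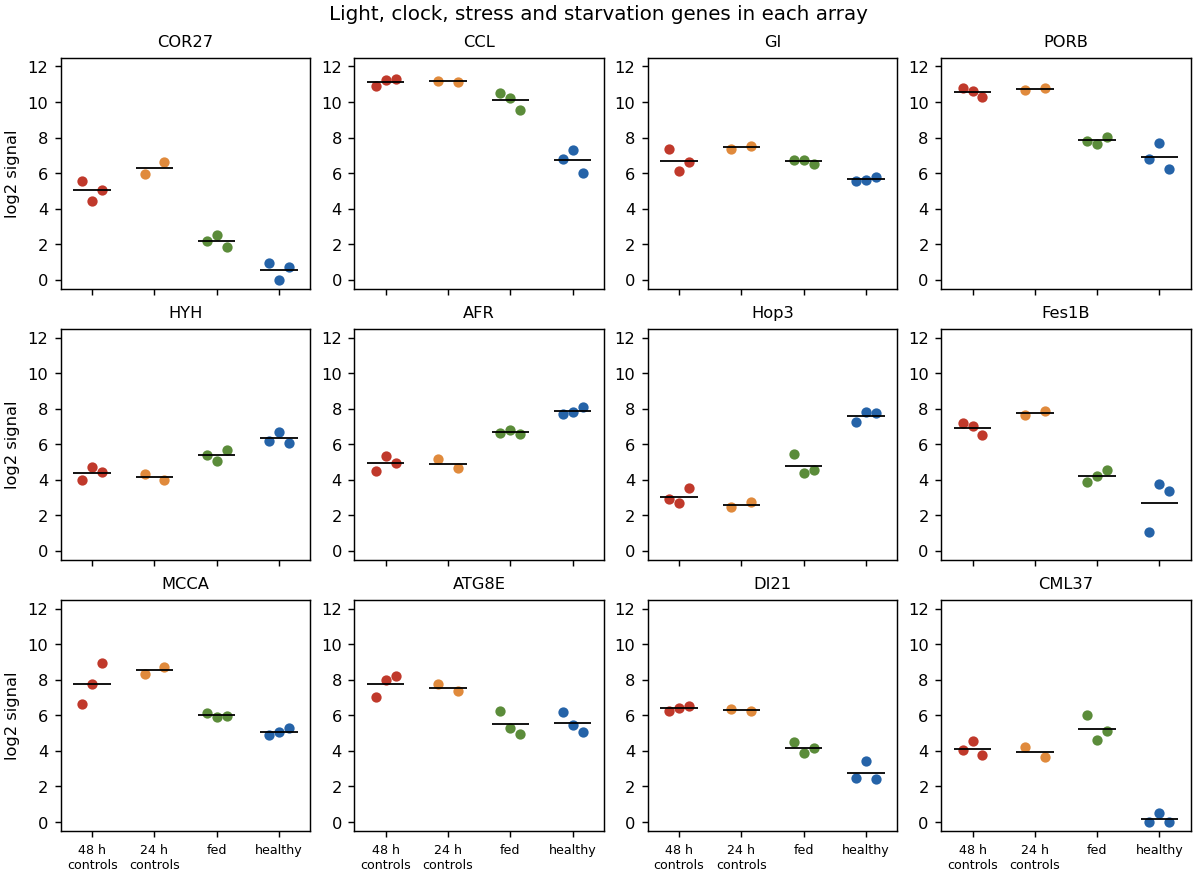
Log2 signal of 12 clock, light, heat-shock, starvation and stress genes (vertical axes) in each array of the 48 h controls, 24 h controls, leafminer-fed and healthy plants, with points for arrays and lines for group means. The healthy arrays lie apart from the 48 h controls in every panel, below them for COR27, CCL and PORB and above them for HYH, AFR and Hop3.

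Among 9 measured genes of ethylene response and defensins, 2 were higher in the 48 h controls, PDF1.2 and its near-identical copy PDF1.2b (2.78 ± 0.69, adjusted p = 0.0087), which the probe sets may not separate, and 1 was lower, the thionin THI2.2 (-1.64 ± 0.40, adjusted p = 0.0080). The median of the 9 was 0.31; it was 0.11 without the third 48 h control, 0.57 without the first and 0.51 without the third healthy array. With only the arrays of both groups in the fit, 1 of the 9 was higher. Over all probe sets, 8.79% were higher and 8.27% lower. PDF1.2, a defensin and the standard marker of that branch, had signals of 9.09, 9.36 and 10.16 in the 48 h controls, against 4.28, 7.09 and 4.19 in healthy plants, a 20.4-fold higher level (4.35 ± 0.65, adjusted p = 0.00033). The second healthy array was the highest of its group and still below the lowest 48 h control. The 24 h controls averaged 8.91 and the fed plants 10.30. PR-4, a hevein-like protein, had 10.58, 10.78 and 10.96 in the 48 h controls, against 8.39, 8.58 and 7.40 in healthy plants (2.65 ± 0.25, adjusted p = 1.1e-05). The basic chitinase had 5.70, 7.40 and 7.23 in the 48 h controls, against 3.10, 4.43 and 4.16 in healthy plants (2.88 ± 0.45, adjusted p = 0.00047). The names PR-4 and basic chitinase come from the study's primer list, a list chosen by the study on these samples, as do VSP1, LOX2, OPR3, AOS, hydroperoxide lyase and PR-1. Among 5 chitinases of the lists, AT2G43590 was higher (2.75 ± 0.27, adjusted p = 1.7e-05); 2 were without the first 48 h control or the second healthy array.

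Of 6 stress proteins of the jacalin and thaumatin families, 5 were up-regulated, with a median of 2.84. Over all probe sets, 8.79% were up-regulated. The list was chosen with earlier results of these data known, so its share of rises is no independent evidence. JAL33, a jacalin-related lectin, had 8.18, 8.19 and 8.09 in the 48 h controls, against 4.45, 4.06 and 3.43 in healthy plants (4.18 ± 0.24, adjusted p = 5.5e-07). JAL22 had 8.20, 8.14 and 8.23 in the 48 h controls, against 5.11, 4.44 and 4.50 in healthy plants (3.51 ± 0.32, adjusted p = 8.6e-06). The arrays of the 48 h controls lay close together for each of these lectins. JAL34 (1.73 ± 0.22, adjusted p = 9.5e-05) and the thaumatin-like protein ATLP-1 (2.17 ± 0.48, adjusted p = 0.0042) were also higher. OSM34, an osmotin, had 4.06, 8.95 and 9.03 in the 48 h controls, against 0, 4.95 and 3.03 in healthy plants, so that the groups overlapped and the arrays within each differed widely (4.68 ± 1.40, adjusted p = 0.022). Its call was lost without the second (3.88, adjusted p = 0.089) or the third 48 h control (3.84, adjusted p = 0.085) or the first healthy array (3.37, adjusted p = 0.092).

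Salicylate-related genes showed 3 rises and no fall among 8 measured members (8.79% and 8.27% over all probe sets), with a median of 1.04. GRX480, a glutaredoxin that binds TGA factors and is induced by salicylate, had 6.66, 6.29 and 6.20 in the 48 h controls, against 4.33, 4.01 and 3.36 in healthy plants (2.49 ± 0.30, adjusted p = 6.7e-05). BIK1, a kinase of immune receptors, ranged between 6.09 and 6.64 in the 48 h controls and between 4.99 and 5.12 in healthy plants (1.32 ± 0.15, adjusted p = 4.8e-05). PR-1, the usual marker of salicylate responses, is named by the study's primer list alone and is not 1 of the 8 members. It had 6.98, 10.29 and 10.52 in the 48 h controls, against 7.07, 7.29 and 4.78 in healthy plants. The first 48 h control was thus at the level of healthy plants, the groups overlapped, and the call (2.88 ± 0.87, adjusted p = 0.024) was lost without the second (2.38, adjusted p = 0.094) or the third 48 h control (2.26, adjusted p = 0.093) or the third healthy array (2.08, adjusted p = 0.10). The 24 h controls averaged 6.82 for PR-1.

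Genes of jasmonate synthesis and response did not move together. Of 3 measured genes of the synthesis list, 1 was up-regulated and 1 down-regulated (8.79% and 8.27% over all probe sets). Their median was 0.76, with differences of -2.69 to 1.15. The rise was not called with no scaling, with median scaling, on log2 of the value plus 16 or with only the arrays of both groups in the fit. Among the fits with an array left out, it was called only without the third 48 h control. It is not among the genes described next, most of which are named by the study's primer list. AOS, allene oxide synthase, which commits lipid peroxides to jasmonate, had 7.69, 7.16 and 6.90 in the 48 h controls, against 8.47, 8.50 and 8.87 in healthy plants (-1.36 ± 0.19, adjusted p = 0.00017). Hydroperoxide lyase, which uses the same substrates for leaf volatiles, had 4.66, 4.63 and 4.21 in the 48 h controls, against 6.95, 6.97 and 6.92 in healthy plants, a 5.46-fold lower level (-2.45 ± 0.16, adjusted p = 9.8e-07). LOX2, the lipoxygenase before them, had 9.66, 8.99 and 9.48 in the 48 h controls, against 9.82, 9.45 and 10.03 in healthy plants, and did not pass the test (-0.39, 95% interval -0.80 to 0.02). OPR3, which acts later, did not pass it either (-0.30, 95% interval -0.64 to 0.05). JMT, the jasmonate methyltransferase, had 2.23, 0.97 and 1.76 in the 48 h controls, against 4.35, 3.82 and 4.86 in healthy plants (-2.69 ± 0.42, adjusted p = 0.00047). All of the genes named in this paragraph were higher in fed plants than in either group. Their means were 6.54 for JMT, 8.78 for hydroperoxide lyase, 10.97 for AOS, 11.43 for OPR3 and 11.92 for LOX2.

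Downstream of the hormone, VSP1, a storage protein with phosphatase activity, had 8.72, 6.85 and 7.10 in the 48 h controls, against 4.45, 5.37 and 5.27 in healthy plants (2.52 ± 0.44, adjusted p = 0.00098). Its probe set may also detect related sequences. THI2.1, a thionin induced by jasmonate, had 5.76, 4.69 and 5.62 in the 48 h controls, against 1.31, 2.32 and 1.25 in healthy plants (3.73 ± 0.44, adjusted p = 6.7e-05). MYC4, a transcription factor of jasmonate responses, had 5.24, 4.60 and 4.52 in the 48 h controls, against 7.70, 6.87 and 7.57 in healthy plants (-2.59 ± 0.26, adjusted p = 1.7e-05). The 35 probe sets of the study's primer list, chosen by the study on these samples and so no independent evidence, included 15 that were higher and 4 that were lower.

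**Figure D3:**
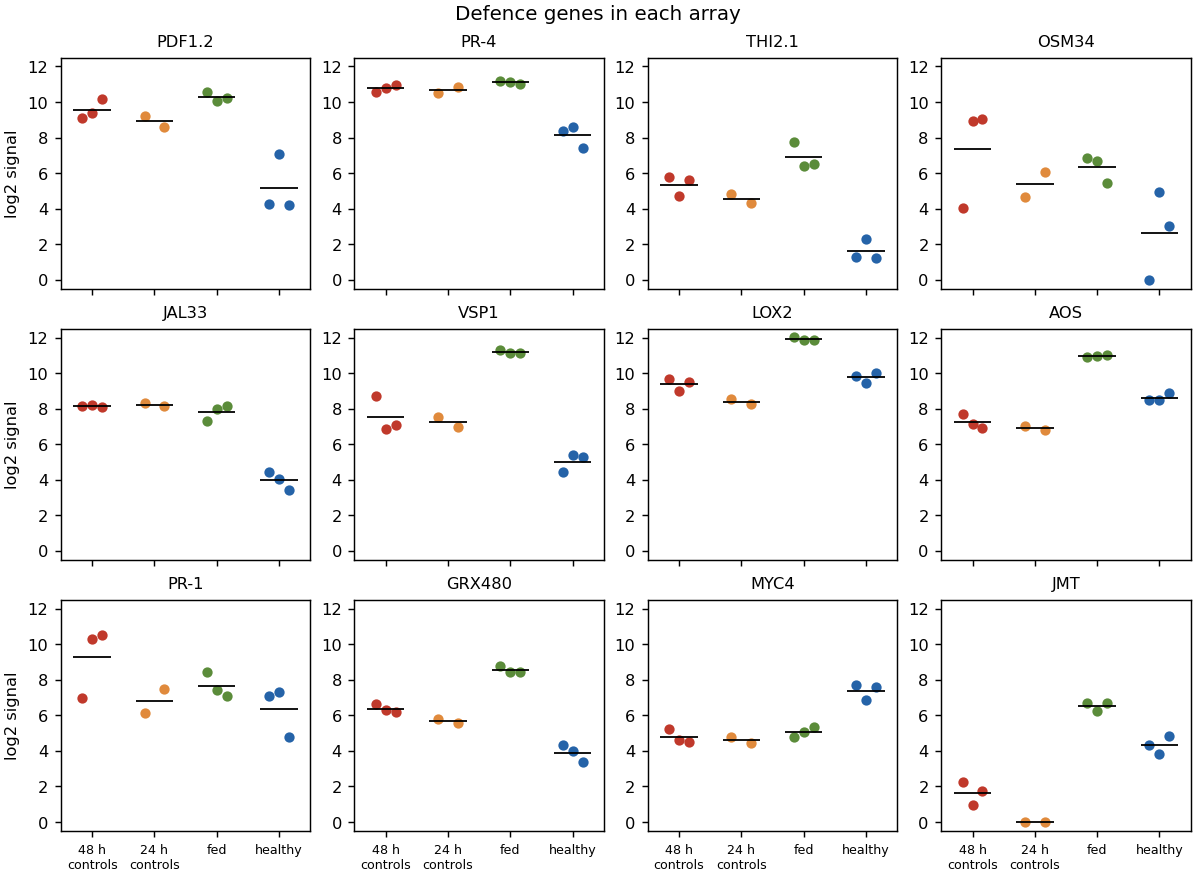
Log2 signal of 12 defence genes (vertical axes) in each array of the 48 h controls, 24 h controls, leafminer-fed and healthy plants, with points for arrays and lines for group means. PDF1.2, PR-4, THI2.1 and JAL33 lie above all healthy arrays in the 48 h controls, AOS, MYC4 and JMT lie below them, and PR-1 and OSM34 spread widely between the 48 h controls.

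Of 7 measured phenylpropanoid and anthocyanin genes, 2 were down-regulated and none was up-regulated by limma (8.27% and 8.79% over all probe sets). Their median was -0.65, but 0 without the first healthy array, with 3 genes above 0 and 3 below, -0.13 without the third 48 h control and -0.09 on log2 of the value plus 16. The 2 calls were made in each of these settings. UGT78D1, which adds rhamnose to flavonols, had 6.42, 5.81 and 5.35 in the 48 h controls, against 8.22, 7.79 and 8.66 in healthy plants (-2.36 ± 0.27, adjusted p = 4.7e-05). UGT78D2, which adds glucose, had 5.75, 5.80 and 5.53 in the 48 h controls, against 7.72, 7.69 and 7.84 in healthy plants (-2.06 ± 0.17, adjusted p = 4.8e-06). CHIL, a chalcone isomerase-like protein of the same pathway that was named after its values were seen, had 4.33, 3.98 and 3.05 in the 48 h controls, against 7.15, 7.26 and 7.62 in healthy plants (-3.55 ± 0.33, adjusted p = 9.4e-06). No healthy array overlapped a 48 h control for any of these genes. In fed plants the means were 6.66, 6.26 and 3.79 in the same order.

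Markers of cell types were few among the named probe sets, and in bulk leaves fewer cells of a type cannot be told apart from less RNA per cell. Of 10 measured genes of dividing cells, 6 were up-regulated and none was down-regulated (8.79% and 8.27% over all probe sets), and their summed linear signal was 710.4 to 1228 in the 48 h controls, against 427.7 to 544.1 in healthy plants. They were histone H2B genes such as HTB11 (1.14 ± 0.23, adjusted p = 0.0022), the Aurora kinases of mitosis, with AUR2 at 5.34, 4.60 and 4.12 in the 48 h controls, against 3.32, 3.13 and 2.54 in healthy plants (1.69 ± 0.30, adjusted p = 0.0011), and KINESIN-12B, a motor of the dividing cell plate (2.47 ± 0.48, adjusted p = 0.0019). Without the first 48 h control the count was 2, and HTB11 differed by 0.91. It was 3 with only the arrays of both groups in the fit and 1 on log2 of the value plus 16, and all 10 differences were above 0 in these settings. Of 4 measured genes of the stomatal lineage, 1 was up-regulated and none down-regulated, with a median of 0.33 (-0.01 without the third healthy array). Their summed linear signal was 115.9 to 179.7 in the 48 h controls, against 105.3 to 180.9 in healthy plants. The gene called higher was SPCH, which starts this lineage, at 4.45, 3.63 and 4.13 in the 48 h controls, against 0.89, 0.62 and 1.40 in healthy plants (3.10 ± 0.26, adjusted p = 5.7e-06). FMA, which acts at its end, had means of 5.02 and 5.33 in the 48 h controls and healthy plants (-0.31). The leaf-hair inhibitor TRY had 1.02, 2.64 and 1.96 in the 48 h controls, against 5.16, 5.05 and 4.67 in healthy plants (-3.08 ± 0.49, adjusted p = 0.00050). Of 2 root markers, the root-hair expansin EXPA7 had means of 0.45 in the 48 h controls and 0.46 in healthy plants, and PYK10, a beta-glucosidase of endoplasmic reticulum bodies, had 10.51, 9.62 and 9.63 in the 48 h controls, against 6.78, 6.29 and 6.22 in healthy plants (3.49 ± 0.28, adjusted p = 3.5e-06).

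Of 69 probe sets of the chloroplast genome, 37 were down-regulated in the 48 h controls, against 8.27% over all probe sets. None was up-regulated by limma, against 8.79%, and 32 were not called. Their median was -1.24, and 64 had a difference below 0, against 50.3% of all probe sets. The 5 above 0, named after their values were seen, were psbM (0.50 ± 0.15, adjusted p = 0.024), rpoA (0.47), ccsA (0.31), rps14 (0.20) and rpl20 (0.03), none of which reached 2-fold. The median signal of these probe sets was 7.52, 7.51 and 7.68 in the 48 h controls, against 9.73, 9.33 and 9.73 in healthy plants. It was 7.50 and 7.34 in the 24 h controls and 8.79, 8.99 and 9.11 in fed plants. Plants exposed to volatiles of damaged Lima bean had 8.18 and 6.01 after 24 h and no more than 7.05 after 48 h, so that the pair of arrays at 24 h lay about as far apart as the 48 h controls lay from healthy plants. psbD, the D2 protein of photosystem II, had 7.06, 6.45 and 6.61 in the 48 h controls, against 10.35, 10.00 and 10.67 in healthy plants, a 12.4-fold lower level (-3.63 ± 0.33, adjusted p = 9.5e-06). The photosystem II subunits psbT (-3.58 ± 0.46) and psbB (-3.29 ± 0.53), the photosystem I assembly factor ycf3 (-3.38 ± 0.58) and ndhH, of the NADH dehydrogenase-like complex (-3.30 ± 0.48), followed. psbA, the D1 protein, had 7.24, 7.26 and 7.61 in the 48 h controls, against 8.80, 8.66 and 9.19 in healthy plants (-1.51 ± 0.21, adjusted p = 0.00019). rbcL, the large subunit of Rubisco, differed by -1.96 ± 0.54 (adjusted p = 0.015), a call that was lost without the third 48 h control (-1.69, adjusted p = 0.058) or the third healthy array (-1.65, adjusted p = 0.065).

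For 35 of the 69 chloroplast probe sets, all 10 arrays of the volatile experiment were below all 6 of the feeding experiment, against 4.85% of all probe sets. With each array left out in turn, 30 to 39 of the 69 were down-regulated and none was up-regulated. Of 23 probe sets of the mitochondrial genome, 9 were down-regulated and none was up-regulated (8.27% and 8.79% over all probe sets), with a median of -0.88. The median signal of these 23 was 3.09, 3.14 and 3.32 in the 48 h controls, against 3.72, 3.90 and 4.11 in healthy plants. On log2 of the value plus 16 the mitochondrial median was -0.36 and no call was left. The actin 3′ to 5′ ratio also differed between the groups: it was 12.6 to 26.4 in the 48 h controls, against 7.40 to 8.62 in healthy plants. In fed plants it was 5.75 to 7.61, whereas their chloroplast medians, 8.79 to 9.11, were below the 9.33 to 9.73 of healthy plants. The part of the ratio in these differences was not tested.

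**Figure D4:**
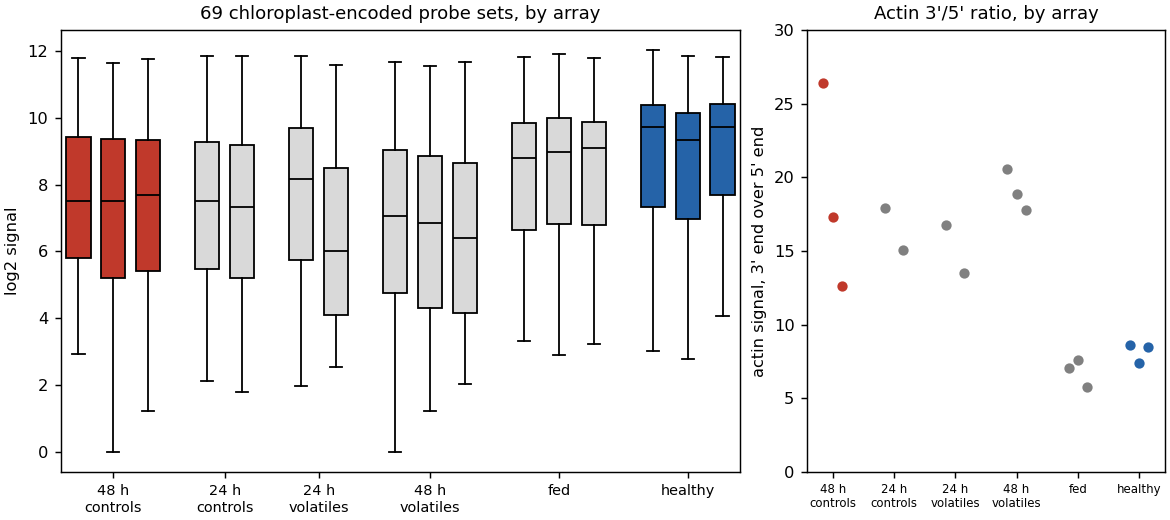
Left, log2 signal of 69 chloroplast-encoded probe sets in each array (box from lower to upper quartile with the median, whiskers to the lowest and highest value), in the 48 h and 24 h controls, the plants exposed to volatiles of damaged Lima bean for 24 and 48 h, fed and healthy plants, and right, the ratio of actin signal at the 3′ end to the 5′ end in each array. The 48 h controls have medians of 7.51 to 7.68 and ratios of 12.6 to 26.4, and the healthy plants medians of 9.33 to 9.73 and ratios of 7.40 to 8.62.

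The other arrays of the series show on which side of each difference they lie, as a description of levels. Of the 1999 probe sets higher in the 48 h controls, 792 (39.6%) were higher in all 10 arrays of the volatile experiment than in all 6 arrays of the feeding experiment, and this held for 6.70% of all probe sets. For 767 (38.4%) the healthy arrays were below all 13 other arrays, fed plants included, which held for 5.72% of all probe sets; 166 showed both patterns and 606 neither. Of the 1880 that were lower, 666 (35.4%) were lower in all arrays of the volatile experiment, and for 1067 (56.8%) the healthy arrays were above all 13 others, against 4.85% and 8.90% of all probe sets. The 48 h control and healthy arrays helped to define both the calls and these patterns, so that nothing is read from the shares. PORB, DI21, HYH and Fes1B were among those that divided the experiments, and PDF1.2, JAL33, CML37 and AT2G27420 among those for which healthy plants stood apart from every other array.

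**Figure D5:**
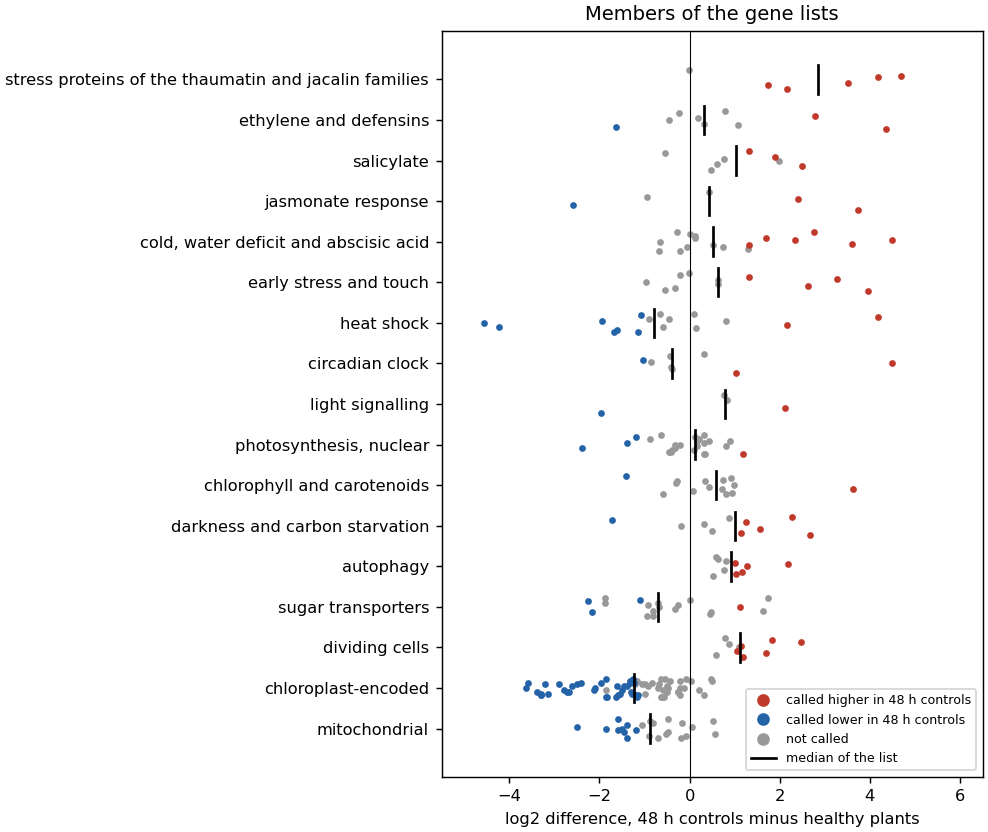
Log2 difference of each measured member of 17 gene lists (horizontal axis), 48 h controls minus healthy plants, with called members coloured and the median of each list as a bar. Medians run from -1.24 for the chloroplast-encoded probe sets to 2.84 for the thaumatin and jacalin families, with heat shock at -0.78 and autophagy at 0.91.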

How the data were processed

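The intensity values are MAS5 signals that the authors computed and deposited on a linear scale, credited to the submitters' processing notes; their scaling target is not given in the sources used here, nor whether the described GeneSpring normalization was applied. Arrays have no count depth, and their number limits the precision. Of 22810 probe sets, 64 controls were left out. Values were quantile-normalized over 16 arrays, raised to a floor of 1 and taken as log2; 9.62% to 13.3% of the deposited values of an array were at or below 1. limma 3.58.1 (R 4.3.3) fitted 6 group means, letting the prior variance follow signal, with Benjamini-Hochberg adjustment of p over 22746 probe sets. In simulated data for the 48 h comparison with 22746 probe sets, 100 were changed 2-fold and 100 were changed 4-fold, all at or above the median signal. At an adjusted p of at most 0.05 and no fold threshold, 60% of the 2-fold and 99% of the 4-fold changes passed. These rates do not cover low signals or the larger number of changes in the real data. SAM, which the methods name, was not run. GEO's platform annotation, as supplied, matched 13513 probe sets to 1 gene and 503 to several; 8730 were not listed; 13436 had a RefSeq gene (TAIR10.1, names only).

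Members and the 44 lists were chosen with earlier results of these data known; of 923 list genes, 411 had a named probe set. Named genes are the 10 greatest rises and falls among called, non-overlapping probe sets that match 1 gene and whose higher group reaches the median signal (4.62), the 2 to 5 members of a described list with the greatest change, and members needed for their role. Promoter motifs were not analysed here. Settings varied were scaling, floor, filter, trend, thresholds, arrays fitted and a replicate block. Plots used matplotlib 3.10.9.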

Additional observations from a re-analysis of the deposited data

Results flagged for a closer look

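The difference between the 2 durations of the control treatment, tested directly, passed for 4 probe sets, and all of them had low signals. In the 48 h controls against the 24 h controls the log2 difference was 2.39 (adjusted p = 0.042, limma) and 2.15 (adjusted p = 0.015) for a pair of probe sets that have no gene name here. It was -1.79 for AT3G30810 (adjusted p = 0.00015) and -1.98 for AT3G30240 (adjusted p = 0.0012). AT3G30810 and AT3G30240 were at the floor in every 48 h control and every healthy array, and the unnamed probe set with a difference of 2.15 was at the floor in every 24 h control and healthy array. No group of 3 arrays was screened for a single deviating array.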

How the results depend on the processing

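The counts of called probe sets moved with the thresholds, with the arrays in the fit and with the scaling. Scaling moved them more in the 24 h controls and leafminer-fed plants than in the 48 h controls. In the 48 h controls against healthy plants, 908 were higher and 911 lower on log2 of the value plus 16, 3253 and 3174 at 1.5-fold, and 3799 and 3669 with no fold threshold. In the 24 h controls against healthy plants these were 963 and 1002, 3066 and 3029, and 3422 and 3333. With no scaling, 1162 were higher in the 24 h controls (29.0% of calls, against 50.1%) and 1476 were lower in leafminer-fed plants (66.3% of calls higher, against 48.3%); the median of all probe sets then moved to -0.23 and 0.14. It moved to -0.11 in the 48 h controls, where 1608 were higher and 2211 lower (42.1% of calls higher, against 51.5%). With only the arrays compared in the fit, 1346 were higher and 1451 lower in the 48 h controls, and 1237 higher and 1373 lower in the 24 h controls. On log2 of the value plus 16, 1462 were higher and 1225 lower in leafminer-fed plants. In the 48 h controls against the 24 h controls, 1 was higher with no scaling, with median scaling and with a replicate block, 5 were lower with median scaling, and 0 were higher and 0 lower on log2 of the value plus 16 and among the upper 60% of probe sets by signal. With each array left out in turn, 1681 to 2132 were higher and 1582 to 2000 lower in the 48 h controls, and 1463 to 2083 higher and 1556 to 2124 lower in the 24 h controls. On log2 of the value plus 16 the list medians were -0.32 for heat shock, 0.32 for salicylate, 0.31 for early stress and touch and -0.25 for sugar transporters; with no scaling or median scaling, 5 sugar transporters were lower. Same-numbered 48 h control and healthy arrays deviated with correlations of -0.242, 0.042 and -0.085, so the numbers do not pair them, and the replicate block gave 1964 higher and 1863 lower. Of 120 named probe sets, 87 kept their call and direction under every alternative tested on them, and no called one changed direction. The changed fold thresholds were not among these alternatives, and the filter by signal kept 104 of the 120. Uncalled values near 0 changed sign: LHCB4.1 with no scaling (-0.02), EXPA7 with an array left out (-0.33 to 0.45), rps14 likewise (-0.03 to 0.49), rpl20 with no scaling (-0.06), median scaling (-0.00) and an array left out (-0.14 to 0.32), and AT3G30810 and AT3G30240, both 0 between these groups, on log2 of the value plus 16 (0.02 each). Arrays at or near the floor limit the size of a difference.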

Other observations

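Beta-glucosidases, which release sugars from stored conjugates and wall compounds, were more often higher than lower in the 48 h controls. Of 20 measured members, 7 were higher and 2 lower than in healthy plants, with a median log2 difference of 0.53. Over all probe sets, 8.79% were higher and 8.27% lower. On log2 of the value plus 16, 1 was higher and the median was 0.12, and with no scaling 4 were higher. BGLU44 had signals of 9.49, 9.79 and 9.83 in the 48 h controls, against 7.66, 6.84 and 7.26 in healthy plants (2.45 ± 0.18, adjusted p = 2.3e-06, limma). BGLU40 moved the other way, with 5.65, 6.00 and 5.25 in the 48 h controls, against 8.44, 8.41 and 8.56 in healthy plants (-2.84 ± 0.17, adjusted p = 7.2e-07). The groups of these 2 genes did not overlap, which held for 38.5% of all probe sets. The 24 h controls had signals of 9.51 and 9.64 for BGLU44 and of 5.86 and 5.58 for BGLU40.

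Genes of wall loosening were mixed, with 6 of 27 higher and 2 lower (8.79% and 8.27% over all probe sets), and 1 in each direction on log2 of the value plus 16. The expansin EXPA8 had 7.68, 8.28 and 7.52 in the 48 h controls, against 6.04, 6.01 and 6.15 in healthy plants (1.76 ± 0.36, adjusted p = 0.0026). XTH32, of the enzymes that cut and rejoin xyloglucan, had 6.84, 6.77 and 6.33 in the 48 h controls, against 8.59, 8.71 and 8.49 in healthy plants (-1.95 ± 0.17, adjusted p = 5.6e-06). Of 47 UGT glycosyltransferases, 9 were higher and 7 lower, against the same shares over all probe sets, with a median of 0.16. The median was 0 without the first 48 h control and -0.03 without the second, and 5 were higher with only the arrays of both groups in the fit.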
